A study of Drosophila melanogaster with 2 samples.

Results

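Weak promoter peaks of the transcription factor CrebA are described here: peaks of the deposited pooled list that lay at a transcript start but did not reach the optimal list, the one that the authors had thresholded by the irreproducible discovery rate (IDR, which compares the ranks of peaks between replicates). A pooled nuclear peak counted as weak when its summit was within 500 bp of an annotated start and more than 500 bp from every optimal summit, and 4386 of the 29999 pooled peaks met that rule. Of these, 1992 had a summit within 200 bp in the lists of both replicates and are called the reproducible weak peaks. A further 886 were matched in replicate 4 alone, 1169 in replicate 2 alone and 339 in neither. The comparison set was the 902 nuclear optimal peaks at a start, called optimal promoter peaks. The weak set was thus chosen by pooled signal, through the optimal list, and its reproducible part by the replicate lists, so the signal differences between sets and the share of members matched in both replicates are descriptions of that choice.

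The data came from chromatin immunoprecipitation with sequencing (ChIP-seq) of 1 group, with biological replicates labelled 4 and 2. Both were whole wandering larvae of the third instar, of both sexes pooled and of unknown age, from the CrebA-MiMIC-GFP strain, in which a GFP exon placed in an intron makes the CrebA gene encode a fusion protein. According to the labels, the sheared chromatin was pulled down with an anti-GFP antibody, while their antibody field names CrebA. There was no second condition or genotype, and no control immunoprecipitation was analysed here, so what untagged larvae give at these places is not known here. The deposited relaxed lists hold background as well as peaks, and a whole larva cannot tell a site used in few cells from one weakly held in many.

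CrebA is a bZIP protein of the CREB3 family and is known from the fly embryo, above all its salivary gland, for switching on secretory pathway genes. bZIP proteins bind DNA as dimers at short sites built around an ACGT core. A promoter also carries sequences bound by other proteins: GAGA factor at GAGAG repeats, DREF at TATCGATA (the DRE), M1BP at GGTCACACT, and the TATA-binding protein at TATAAA. Peaks below an IDR cutoff are known to mix true low-occupancy sites with background, and the replicate lists are the available check.

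The sequences below show what lies under members of the reproducible weak set for the motifs the results turn on. Each is the dm6 forward strand from 100 bp before to 100 bp after the pooled summit, read from the Release 6 assembly, and comes from the strongest reproducible weak peak with that motif whose window was clear of annotated exons and which was not already shown for another motif. Capitals mark the motif on either strand. Glyat (chr2L:8010711-8010911, summit 159 bp upstream of the start) holds a full palindromic cAMP response element (CRE), TGACGTCA. Alp13, an alkaline phosphatase gene (chr3R:10075436-10075636, 163 bp upstream), holds the CREB3-type site CCACGTCA. Jon99Cii, a gut serine protease gene (chr3R:29924634-29924834, 119 bp upstream), holds the shorter ACGTG core, read here as CACGT. In aru (chr2L:868422-868622, 168 bp upstream), which encodes an adaptor of the EPS8 family, 7 overlapping matches to GAGAG cluster at 1 end of the window. Fas1, a cell adhesion gene (chr3R:16624912-16625112, 226 bp upstream), holds TATAAA. Actbeta, the gene of an activin-type ligand (chr4:1084832-1085032, 136 bp upstream), holds the DRE. AMPdeam, AMP deaminase (chrX:13845876-13846076, 110 bp upstream), holds the M1BP site, read as AGTGTGACC. All these summits lay between annotated genes.
Glyat: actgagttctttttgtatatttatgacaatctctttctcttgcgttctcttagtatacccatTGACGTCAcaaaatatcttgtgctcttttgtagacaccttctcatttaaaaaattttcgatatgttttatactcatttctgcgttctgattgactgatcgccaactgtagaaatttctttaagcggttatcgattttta
Alp13: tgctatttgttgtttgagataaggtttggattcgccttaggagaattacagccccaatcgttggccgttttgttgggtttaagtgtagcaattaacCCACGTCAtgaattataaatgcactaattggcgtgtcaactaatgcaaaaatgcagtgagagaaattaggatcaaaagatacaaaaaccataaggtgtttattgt
Jon99Cii: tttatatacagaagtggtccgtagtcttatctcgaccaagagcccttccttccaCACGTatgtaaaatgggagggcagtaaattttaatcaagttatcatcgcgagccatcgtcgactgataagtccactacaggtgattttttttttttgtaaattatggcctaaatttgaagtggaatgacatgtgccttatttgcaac
aru: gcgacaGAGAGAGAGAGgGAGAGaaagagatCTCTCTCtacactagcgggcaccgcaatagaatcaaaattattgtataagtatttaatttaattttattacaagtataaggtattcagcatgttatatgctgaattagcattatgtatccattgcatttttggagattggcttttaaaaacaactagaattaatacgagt
Fas1: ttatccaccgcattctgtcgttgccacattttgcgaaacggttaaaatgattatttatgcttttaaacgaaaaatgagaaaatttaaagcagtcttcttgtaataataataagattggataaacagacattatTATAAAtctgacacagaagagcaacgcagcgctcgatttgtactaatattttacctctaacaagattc
Actbeta: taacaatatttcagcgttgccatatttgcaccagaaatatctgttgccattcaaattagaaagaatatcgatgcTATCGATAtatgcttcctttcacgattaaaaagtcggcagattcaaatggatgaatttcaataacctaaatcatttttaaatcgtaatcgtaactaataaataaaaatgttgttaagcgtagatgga
AMPdeam: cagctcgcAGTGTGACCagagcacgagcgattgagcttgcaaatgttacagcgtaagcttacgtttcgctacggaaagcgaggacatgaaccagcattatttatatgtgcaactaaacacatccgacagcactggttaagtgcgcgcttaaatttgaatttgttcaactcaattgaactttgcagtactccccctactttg

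The sequenced members give a view of how the replicates agreed. Glyat had a pooled signal of 76.7, with 32.8 in replicate 4 and 48.8 in replicate 2. Alp13 had 67.5 pooled, 35.2 in replicate 4 and 30.5 in replicate 2. The peak at Jon99Cii had 75.4 pooled, 28.3 in replicate 4 and 47.2 in replicate 2, while aru had 76.4 pooled, 40.6 in replicate 4 and 34.5 in replicate 2. The Fas1 peak had 75.3 pooled, 42.9 in replicate 4 and 28.2 in replicate 2. In replicate 4 Fas1 was the highest of these 5, and in replicate 2 it was the lowest. Actbeta had 52.9 pooled, 22.7 in replicate 4 and 33.4 in replicate 2, and AMPdeam 66.2 pooled, 40.3 in replicate 4 and 15.4 in replicate 2. Signal is the authors' value of each peak, and its scaling to depth is not given in the sources used here, so replicate values are read as ranks within a list and not set against each other in size.

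Pooled signal over all 4386 weak peaks ran from 15.6 through a median of 26.1 to 76.8. The reproducible ones had a median of 39 and the others a median of 20.7. The optimal promoter peaks ran from 77 through 113 to 707. The edge between the sets was narrow: the strongest weak peak, at L (Lobe, a gene of eye growth), had a signal of 76.8 at pooled rank 2242, and the weakest optimal promoter peak, at dlp (a heparan sulfate proteoglycan that carries morphogens), had 77 at rank 2236. At the other edge, CG18480 lay just inside the matching distance, with a replicate 4 summit 200 bp away, and MFS14 just outside, at 201 bp, with a pooled signal of 76.5. There were 67 members whose farther replicate summit was 190 to 200 bp away and 59 weak peaks with one over 200 and up to 210 bp away. The farther replicate summit was at a median of 63 bp, and 835 members (41.9%) had both within 50 bp.

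**Figure D1:**
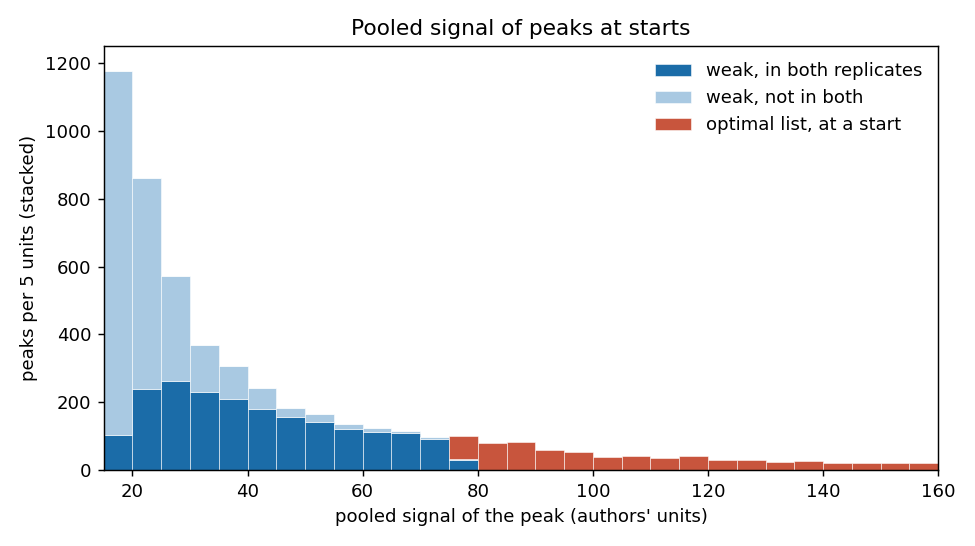
Number of promoter peaks (y axis, stacked bars 5 units wide) by the authors' pooled signal (x axis, drawn up to 160). Weak peaks matched in both replicates are dark blue, other weak peaks light blue and optimal promoter peaks red. The weak set ends at 76.8 and the optimal set begins at 77, and most weak peaks that were not matched sit at the low end.

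The 15 strongest reproducible weak peaks had pooled signals of 75.9 to 76.8. After L and Glyat came CG1360, whose peak is also within 500 bp of a start of scra (anillin, a scaffold of cell division), CG7255, CG2818 and CG17681. They were followed by psq (a BTB-domain transcription factor), mEFTs (the mitochondrial elongation factor Ts, whose peak also serves Dhc36C, a dynein heavy chain), aru and Pgant9 (an enzyme that begins mucin-type O-glycosylation). The last of the 15 were Trpm (a cation channel), lncRNA:CR45540, CG12499, trbl (a Tribbles pseudokinase) and Ald1 (the aldolase of glycolysis). Ald1 stood at 75.9, with 38.4 in replicate 4 and 33.4 in replicate 2, and its nearest optimal summit was 143949 bp away. The peak of trbl was uneven: 42.5 at rank 1649 in replicate 4, and 12.1 at rank 21511 in replicate 2. At the low end were CG6429 at 15.8, CG10340 at 15.7 and snsl at 15.6. The snsl peak held rank 29997 of the pooled list and rank 7545 in replicate 2.

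Few members were strong in either replicate on its own. They were chosen for missing the optimal list, whose threshold compares replicate ranks, so their low ranks are in large part a description of that choice. In replicate 4 the reproducible weak peaks ranked from 541 through a median of 8200 to 29951, and in replicate 2 from 126 through 8571 to 29999. Only CG31778 was within the first 2238 ranks (the length of the optimal list) of both replicates, at 1798 and 1385. A further 105 members (5.27%) were within them in replicate 4 only and 40 (2.01%) in replicate 2 only, which left 1846 (92.7%) in neither. The best replicate 4 rank belonged to ft (Fat, a giant cadherin that restrains growth), at 541, with rank 9977 in replicate 2. The best replicate 2 rank belonged to for (a cGMP-dependent protein kinase of feeding behaviour), at 126 with a signal of 176, against rank 10125 and 15.8 in replicate 4. Across the 1992 members, which share the pooled reads, Spearman's rho was 0.328 between replicate signals, 0.639 between pooled signal and replicate 4, and 0.767 between pooled signal and replicate 2. Among the 6718 matched peaks below the cutoff that were not at starts, the same values were 0.358, 0.659 and 0.743.

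Weak peaks at starts were matched in both replicates more often than weak peaks elsewhere, and the gap was smaller among peaks of like signal. The shares were 1992 of 4386 (45.4%, Wilson 95% interval 43.9 to 46.9) at starts and 6718 of 22720 (29.6%, 29 to 30.2) elsewhere (odds ratio 1.98). Both the match and pooled signal come from the reads that chose the members, so these shares are a description. Peaks are not replicates either, and 1218 of the weak peaks had another weak summit within 500 bp. The 27106 nuclear peaks more than 500 bp from an optimal summit were split by pooled signal into 4 groups of equal size. From the weakest group up, the shares at starts and elsewhere were 6.82% and 4.24%, 17.2% and 11.3%, 39.4% and 35.6%, and 77.7% and 75.2%. Peaks at starts made up 11.2% of the weakest group and 26.7% of the strongest.

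Positions 2000 bp to either side of these peaks, matched the same way, gave 6.55% for peaks at starts and 5.43% for the others. These positions were taken aside from peaks of all signal groups and were not kept away from optimal summits, so they are only a rough background for any 1 group. Weak promoter peaks of the weakest group, with signals up to 18.2, were matched in 6.82%, near the 6.55%. Peaks elsewhere in that group, at 4.24%, were below the 5.43%. Those of the strongest group, from 29.6 up, were matched far more often. In single replicates the shares at starts and elsewhere were 65.6% and 57.8% in replicate 4, and 72.1% and 59.4% in replicate 2. The strongest promoter peaks without a match in both were at Nca (the neurocalcin calcium sensor; 76.6 pooled, nearest replicate 4 summit 2404 bp away), MFS14 and lncRNA:CR45922 (75, with a replicate 2 summit 217 bp away).

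**Figure D2:**
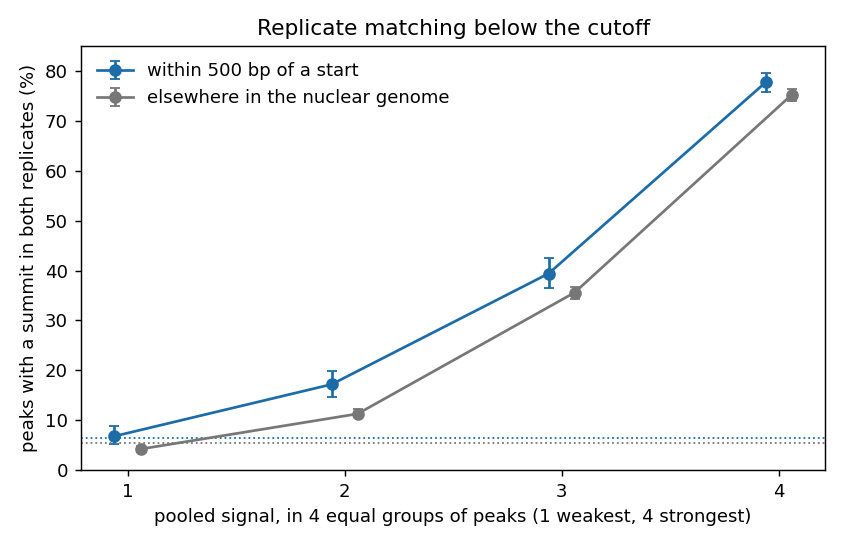
Share of pooled peaks below the cutoff that had a summit within 200 bp in both replicates (y axis, %, bars are Wilson 95% intervals) in 4 groups of equal size by pooled signal (x axis), for peaks within 500 bp of a start (blue) and elsewhere (grey). Dotted lines give the shares for positions 2000 bp to either side of peaks of all groups, 6.55% and 5.43%. The weakest group is at 6.82% at starts and 4.24% elsewhere, and the strongest is above 75%.

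The reproducible weak peaks crowded just upstream of starts, less tightly than the optimal ones. Their median summit was 89 bp upstream and 164 bp from the start in either direction, against 109 bp upstream and 145 bp for optimal promoter peaks and 68.5 bp upstream and 216 bp for weak peaks not matched in both replicates. Within 200 bp upstream lay 39.1% of the reproducible weak summits (37 to 41.3), 28.6% of the unmatched and 53.2% of the optimal. Oscillin, which encodes glucosamine-6-phosphate deaminase, had its summit 1 bp upstream of the start (64.2 pooled, 20.2 in replicate 4 and 72.5 in replicate 2). Of the reproducible summits, 592 (29.7%) lay in an annotated exon, 579 (29.1%) in an intron and 821 (41.2%) between genes. The nearest start belonged to a protein-coding gene for 1659 (83.3%), to an ncRNA gene for 240 (12%) and to a tRNA gene for 65 (3.26%). Of the reproducible summits, 1272 (63.9%) were more than 10000 bp from the nearest optimal summit and 282 (14.2%) were within 2000 bp of one. For weak peaks not matched in both replicates these shares were 72.4% and 10.4%. The rule leaves out summits within 500 bp of an optimal one. These differences in position were not tested.

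**Figure D3:**
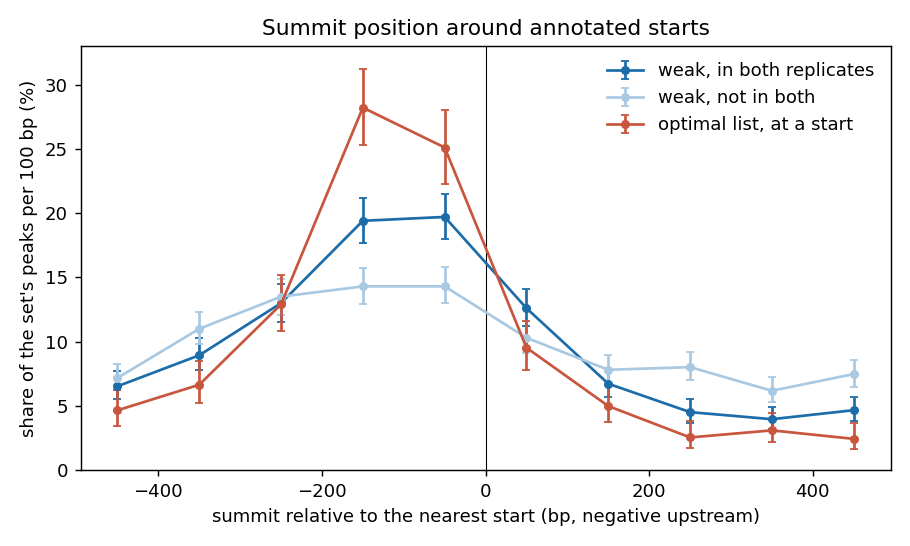
Share of each set's peaks per 100 bp (y axis, %, bars are Wilson 95% intervals) by the summit's distance from the nearest start (x axis, bp, negative upstream). Reproducible weak peaks (dark blue) peak in the 200 bp upstream of the start, below the optimal promoter peaks (red) and above weak peaks not matched in both replicates (light blue).

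Short sequences differed between the 1992 reproducible weak and the 902 optimal promoter peaks for 3 of the 16 motifs tested (18.8%; two-sided Fisher's exact tests over peaks, Benjamini-Hochberg over the 16). Both strands were searched within 100 bp of the summit. The GAGA factor motif GAGAG was in 32.4% of reproducible weak windows and 48.0% of optimal ones (odds ratio 0.52, exact interval 0.441 to 0.613, adjusted p = 2.93e-14). It was in 23.4% of the weak windows not matched in both replicates, and in 22.4% of windows at protein-coding starts with no pooled peak within 500 bp. Matched peaks below the cutoff that were not at starts held it in 22.5%. Over all 19275 protein-coding starts, with windows of the same length, GAGAG was in 25%, the ACGTG core in 18.3% and TATAAA in 26.9%. In 4 groups of equal size by pooled signal within the reproducible set, from the weakest up, its share was 28.5%, 29.1%, 31.3% and 40.8%.

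The ACGTG core was in 15.3% of reproducible weak windows and 22.9% of optimal ones (odds ratio 0.605, exact interval 0.494 to 0.741, Fisher's exact test, adjusted p = 7.28e-06). It was in 16.6% of weak windows not matched in both replicates. In the 4 signal groups of the reproducible set, from the weakest up, its share was 14.3%, 15.5%, 15.1% and 16.3%. Matched peaks below the cutoff that were not at starts held it in 15.3%, the same share as the reproducible weak windows. At starts with no pooled peak it was in 18.2%, and 100 bp upstream of them in 14%. TATAAA went the other way, with 29.6% against 23.8% (odds ratio 1.34, exact interval 1.12 to 1.62, Fisher's exact test, adjusted p = 0.00779). It was in 32.2% of weak windows not matched in both replicates, 27.4% at starts with no pooled peak and 34.5% just upstream of them. Matched peaks below the cutoff that were not at starts held it in 31.5%. The TATAAA difference missed the threshold with starts taken within 250 bp (Fisher's exact test, adjusted p = 0.122) and with 50 bp windows (adjusted p = 0.065). Windows held 40% G and C in the reproducible weak set, 41.9% in the optimal set and 41.8% at starts with no pooled peak, and the part of base composition in these differences was not tested.

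Full CREB-type sites were rare under weak peaks. TGACGTCA was in 13 of 1992 windows (0.653%), against 0.222% of optimal windows and 0.275% of starts with no pooled peak, with an odds ratio over optimal of 2.96 and an exact interval of 0.667 to 27. CCACGTCA was in 3 windows (0.151%), against 0.443% of optimal windows (odds ratio 0.339, interval 0.0495 to 2.01). Neither passed the test, and both intervals are wide. Besides Glyat and Alp13, the strongest members with either site were raw (a brake on JNK signalling; 72.6), lbm (a tetraspanin; 61) and Corp (60.7), and E2f1, the cell cycle transcription factor, had one at 48.6.

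Sequences known from housekeeping promoters were rarer under weak peaks than at starts with no pooled peak, a difference that was not tested. The DRE was in 2.01% of reproducible weak windows, 1.66% of optimal ones and 7.56% of starts with no pooled peak. The M1BP site was in 1.26%, 0.554% and 5.18%, and CATCNCTA, the Ohler 7 element, in 1.41%, 2.22% and 5.01%. Over all protein-coding starts these shares were 6.44%, 4.42% and 4.46%. In windows 100 bp upstream of starts with no pooled peak, closer to where weak summits lie, they were 7.19%, 2.86% and 3.58%. Among matched peaks below the cutoff that were not at starts, they were 0.432%, 0.0595% and 1.06%. Weak summits lie up to 500 bp from a start and not all at protein-coding genes, unlike the compared starts. The part of position in these differences was not tested. The other 13 motifs gave adjusted p of 0.17 to 0.734 by Fisher's exact test between the weak and optimal sets. They were the sites already named apart from the 3 that passed, the E-box of Myc type CACGTG, which contains ACGTG, the E-box of MyoD type CAGCTG, the BEAF-32 core CGATA, which lies within the DRE, the initiator TCAGT, the AP-1 site TGAGTCA, the GATA site AGATAA, the forkhead site TGTTTAC and the Zelda site CAGGTAG.

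**Figure D4:**
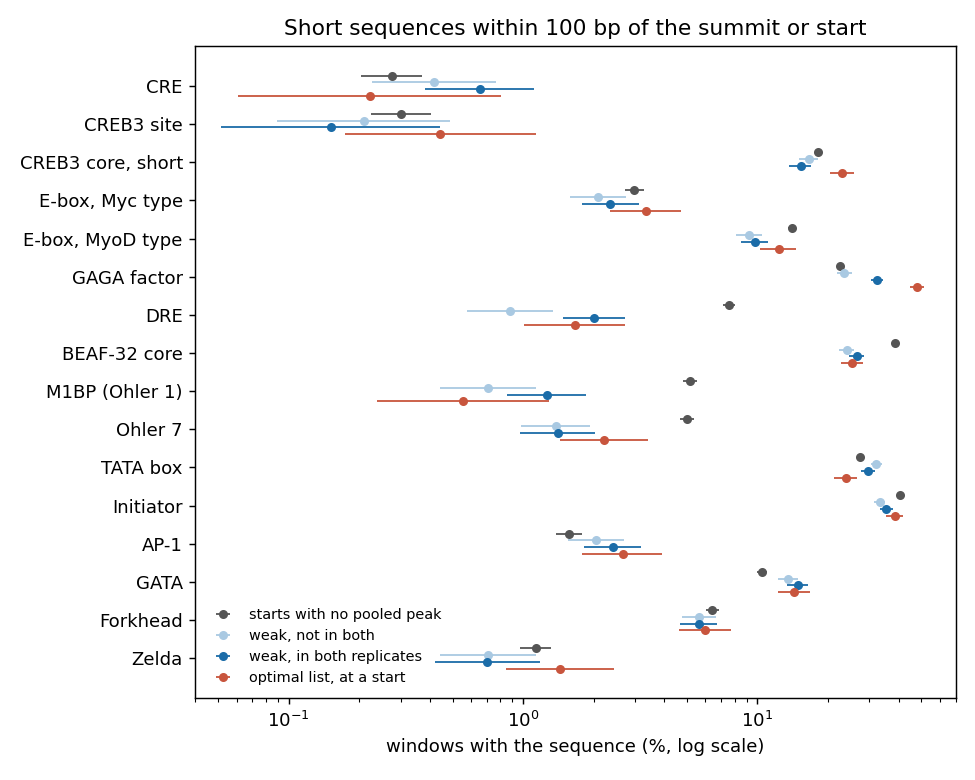
Share of windows with each motif (x axis, %, log scale; bars are Wilson 95% intervals) for 16 motifs within 100 bp of the summit or start, on either strand. Grey points are starts with no pooled peak, light and dark blue points weak peaks outside and inside the reproducible set, and red points optimal promoter peaks. The GAGA factor share rises from 23.4% to 32.4% to 48.0% across the 3 peak sets.

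A reproducible weak peak lay at 1459 of 13968 nuclear protein-coding genes (10.4%), and an optimal peak at 707 (5.06%). Both kinds lay at 123 genes, 8.43% of the former and 17.4% of the latter, beside 5.06% and 10.4% of all protein-coding genes. The rule bars weak summits within 500 bp of an optimal one, which limits this overlap. The other 1336 genes with a reproducible weak peak had no optimal one. A further 1247 genes had only weak peaks not matched in both replicates. Over all gene types the counts were 1873 of 18277 genes (10.2%) with a reproducible weak peak and 903 (4.94%) with an optimal one. The median pooled signal at the 1459 genes was 42.5. These shares are the background for the lists that follow, which carry no test. A gene with several starts has more chances of a peak: 8.01% of genes with 1 start and 17.2% of genes with 2 or more had a reproducible weak peak.

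The early secretory pathway holds the known targets of CrebA. None of the 20 genes that bring proteins into the endoplasmic reticulum (ER) and none of the 35 for ER to Golgi vesicles had one (Wilson upper limits 16.1% and 9.89%), while 4 and 3 of them had an optimal peak. Among 24 genes for ER folding and glycosylation, 2 had a reproducible weak peak and 6 an optimal one. The share for folding, 8.33%, was near that of all genes, and the interval for entry includes 10.4%. The rule also leaves out any weak summit within 500 bp of an optimal one, as at the genes with optimal peaks. The 2 folding genes with a weak peak were Cnx99A (calnexin, a lectin chaperone), at 74.1 with 14.7 in replicate 4 and 54.6 in replicate 2, and Sil1 (a nucleotide exchange factor for BiP), at 40 with 15.3 and 27.7. Of 15 unfolded protein response genes, crc (the fly ATF4) had a weak peak at 64.5 and also an optimal one, and Atf6 had one at 26.1. CrebA itself had no pooled summit within 500 bp of its 1 annotated start: the nearest was 679 bp away, with a signal of 20.2.

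Of 18 bZIP genes, 4 had a reproducible weak peak (22.2%, 9 to 45.2, an interval that includes the 10.4% of all genes): Pdp1 (a factor of the circadian clock and of growth), at 74.5 with 44.8 in replicate 4 and 39.1 in replicate 2, then crc, Atf3 and Atf6. In the list of 19 ecdysone response genes, 8 had one (42.1%, 23.1 to 63.7), with a median of 62.1, and 9 had an optimal peak. Both kinds were present at tai (a coactivator of the ecdysone receptor), Eip75B (a nuclear receptor), EcR (the receptor itself) and br (a zinc-finger factor of metamorphosis). ImpE2, Eip63E, Blimp-1 and ImpE1 had only the weak kind. ImpE2 stood at 64, with 13.4 in replicate 4 and 28.4 in replicate 2, and the EcR peak at 63.8 also lay 64 bp upstream of tRNA:Arg-ACG-1-3. The mean number of annotated starts was 2.39 in the bZIP list, 3.11 in the ecdysone list and 1.41 among all protein-coding genes.

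The homeotic genes, which set segment identity, had weak peaks at 5 of 8 and an optimal peak at 1. The weak share was 62.5%, with a wide interval of 30.6 to 86.3, beside 10.4% of all protein-coding genes. The 5 had no optimal peak: abd-A stood at 54.6 (23.8 in replicate 4 and 33.6 in replicate 2), Dfd at 54.3 (14.9 and 32.3), Antp at 37.3 (27.8 and 13.9), Abd-B at 33.4 (17.4 and 16.1) and pb at 32.5 (19.5 and 15). Replicate 4 put Antp first of the 5 and Dfd last, while replicate 2 put abd-A first and Antp last. The list averaged 2.38 starts a gene.

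Genes of differentiated larval tissues were mixed. In the fat body list, 5 of 12 genes had a reproducible weak peak (41.7%, 19.3 to 68) and 1 an optimal one. The 5 were apolpp (the lipoprotein of the blood, 74.2, sharing its peak with Zyx), Lsp1beta (56.4) and Lsp1gamma (55.4), both larval serum proteins, Fbp2 (42) and Lip4 (41.9). At Lsp1gamma the replicate signals were 34 and 26.7, and at Fbp2 15.3 and 44.5. Of the 7 salivary glue genes, whose proteins fix the pupa to its support, 3 had a weak peak (42.9%, 15.8 to 75) and 2 an optimal one. Sgs3 stood at 33.5 (10.9 in replicate 4 and 22.2 in replicate 2), and Sgs7 and Sgs8, which are divergent neighbours, shared 1 peak at 30.8 (15.8 and 15). Of 96 cuticle genes 9 had a weak peak (9.38%) and none an optimal one. Lcp2 and Lcp3, larval cuticle proteins, shared 1 peak at 51.6, and Lcp1 stood at 47.6. In the list for gut and trachea 4 of 13 genes had a weak peak (30.8%, 12.7 to 57.6). The strongest was that of serp, a chitin deacetylase of the trachea, at 69.3 with 36.5 in each replicate. Mef2, the muscle transcription factor, stood at 75.2 with 10.7 in replicate 4 and 36.2 in replicate 2, and it and Zasp52, the 2 of 20 muscle genes with a weak peak, had optimal peaks as well. Of 16 neuron genes 2 had one, cac (a calcium channel, 29.6) and Gad1 (which makes GABA, 26.5). Whole larvae hold all these tissues, and which of them bore the signal was not measured.

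For genes of basic cell upkeep the shares were mostly below 10.4%. The intervals include 10.4% except for mitochondrial ribosomal proteins (upper limit 9.45%), translation factors (10.1%) and histones (4.76%). Among 85 cytoplasmic ribosomal protein genes 5 had a weak peak (5.88%, 2.54 to 13), led by RpS23 at 62.8, and 5 genes of the list had an optimal peak. Among 84 respiratory chain genes 4 had one (4.76%, 1.87 to 11.6), led by COX7C at 67.5. The proteasome list had 2 of 48 (1.15 to 14), Prosbeta5R2 and Rpt6R, both copies related to proteasome subunits. There was 1 of 33 for the vacuolar proton pump (Vha100-5, 65.2), 1 of 32 for aminoacyl-tRNA synthetases (ArgRS-m, 39), 1 of 52 for translation factors (eIF4G1, 39.7) and 1 histone gene, 0.87% of its list (His4r, 70.3, shared with put). Mitochondrial ribosomal proteins had 2 of 73 (mRpS18A at 59.5 and mRpL13 at 44.5), and heat shock genes 0 of 21. Rab GTPases, which direct vesicle traffic, had 4 of 31 (12.9%), led by Rab5 at 56.1, and no optimal peak.

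Among genes for RNAs, tRNA genes stood high in both sets. A reproducible weak peak lay at 78 of 290 tRNA genes (26.9%, interval 22.1 to 32.3) and an optimal peak at 69 (23.8%), and since tRNA genes cluster, the 78 genes came from 55 distinct peaks. The strongest were tRNA:Thr-AGT-2-1 at 75.5 (49.6 in replicate 4 and 32.7 in replicate 2) and tRNA:Ile-TAT-1-1 at 75.3 (56.4 and 27.8). A single peak of 74 covered tRNA:Ile-AAT-1-4, tRNA:Ile-AAT-1-5 and tRNA:Leu-CAA-2-1. Near-identical gene copies, as among tRNA and rRNA genes, share reads. How reads that map to several places were treated is not given in the sources used here, which limits the counts for both. Counts were 20 of 269 for snoRNA genes (7.43%, from 13 distinct peaks), 5 of 32 for snRNA genes, 302 of 3289 for ncRNA genes (9.18%, from 255 distinct peaks), 9 of 330 for pseudogenes and 0 of 99 for rRNA genes. The annotation files microRNA genes under ncRNA and lists 481 mature microRNA transcripts as genes of their own. Without those transcripts the ncRNA count was 267 of 2808 (9.51%), and 20 of 260 microRNA genes (7.69%) had a reproducible weak peak. The strongest of these was mir-305, at 70 with 26.2 in replicate 4 and 43.3 in replicate 2. Its summit lay 438 bp downstream of the annotated mir-305 start, and the peak was shared with muc. The strongest in these lists were lncRNA:CR45540 at 76.1, lncRNA:CR43611 at 75.6 (36.8 in replicate 4 and 43.5 in replicate 2), snoRNA:Me18S-A1806 at 63.5 (31.5 and 35.6) and snRNA:U7, the small nuclear RNA of histone mRNA processing, at 35.5 (15.3 and 14.7).

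**Figure D5:**
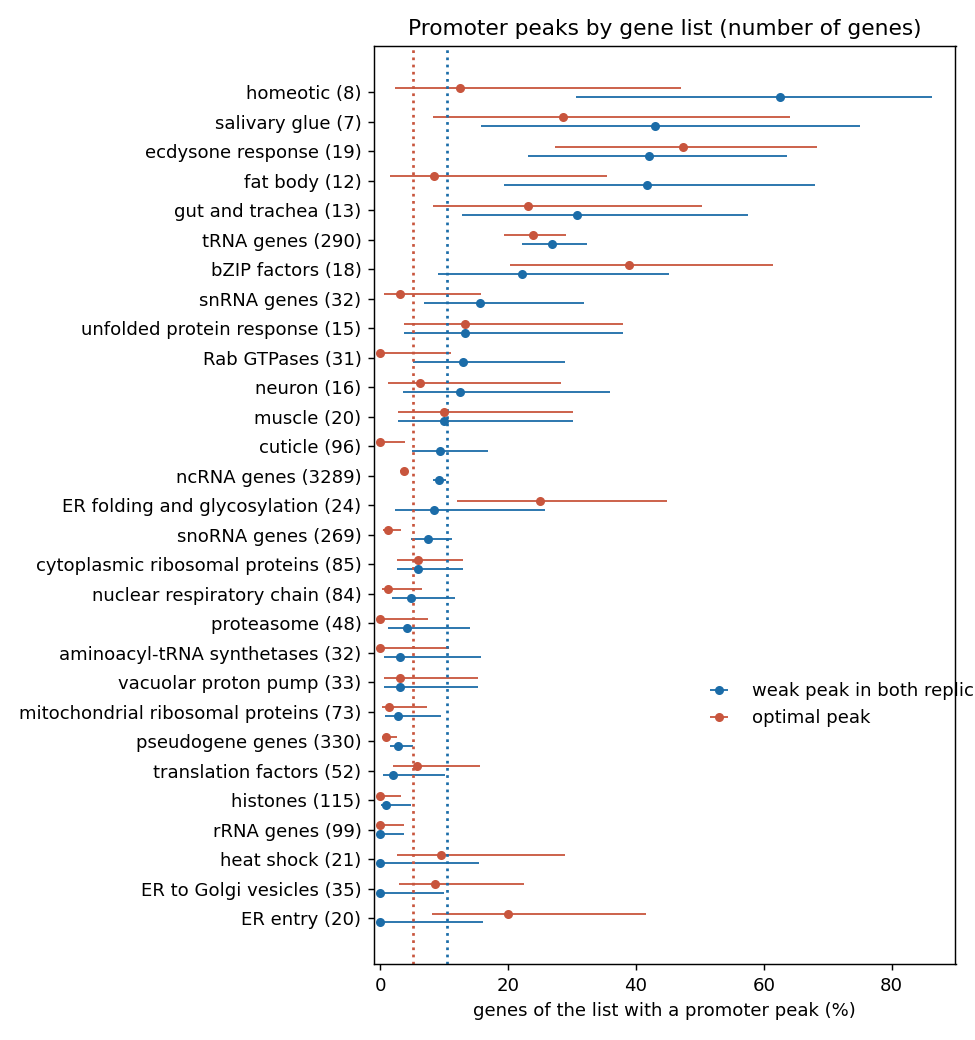
Share of the genes of each list (y axis, number of genes in brackets) with a reproducible weak peak (blue) or an optimal peak (red) at a start (x axis, %); bars are Wilson 95% intervals and dotted lines the shares of all protein-coding genes, 10.4% and 5.06%. The homeotic list, of only 8 genes, has the highest weak share, 62.5% (30.6 to 86.3), and ER entry, ER to Golgi, heat shock and rRNA genes have none.

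By chromosome arm, a reproducible weak peak lay at 11.7% of protein-coding genes on 2L, 9.78% on 2R, 11.4% on 3L and 11.1% on 3R. The X chromosome was lower, with 147 of 2196 (6.69%, interval 5.72 to 7.82), and the small, largely heterochromatic chromosome 4 higher, with 29 of 80 (36.2%, 26.6 to 47.2). None of the 23 genes on Y had one. Among chromosome 4 genes with 1 annotated start, 11 of 42 had one (26.2%). The strongest on chromosome 4 were MED26 (a Mediator subunit, 75.6), Ank (an ankyrin, 74.5), Zyx (zyxin, an adhesion protein, 74.2), Arf4 (a small GTPase, 69.4), Eph (a receptor tyrosine kinase, 69.1) and PIP4K (a phosphoinositide kinase, 67). At MED26 the replicate signals were 36.1 and 50, and at Ank 31.7 and 44.9. Optimal peaks varied in the same direction, with 3.92% of protein-coding genes on X, 11.2% on chromosome 4 and 4.7% to 5.77% on 2L, 2R, 3L and 3R. These shares were not tested.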

How the data were processed

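The authors deposited narrowPeak lists on dm6 (Drosophila Release 6): 1 relaxed list per replicate and 1 from the pooled alignments, called against a control, and an optimal list thresholded by IDR. The deposited signal of each peak is the authors' own value. Not given in the sources used here are its scaling to depth, the software behind alignment and peak calling, and the IDR threshold. Read counts were not used, so depth is unknown, and intervals cover counting error over peaks or genes only. The dm3 lists were not used.

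Starts and genes came from Ensembl release 115 (BDGP6.54, transposable elements left out) and sequence from the RefSeq Release 6 assembly. Summits were matched within 200 bp. Shares carry Wilson 95% intervals. Matching is described by shares, and although a Fisher's exact test of it was planned, its p is not given, because the same reads chose the members. The 16 motifs were compared by Fisher's exact tests (Python 3.11.15, scipy 1.17.1, pandas 2.3.3, numpy 2.4.6; Benjamini-Hochberg over the motifs, threshold 0.05), and motif search and matching were tested on simulated data with planted sites.

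The members, the gene lists and the motifs were chosen with earlier results of these data known. Of the listed names 5 were matched as synonyms, 1 (dumpy) matched none, and a list by the class pre_miRNA stayed empty because the annotation files microRNA genes under ncRNA. Genes were named by rule: the 15 strongest reproducible weak peaks, up to 3 per list, the 3 weakest, and those at the edges of the rule. Other genes, including those of chromosome 4, with CREB-type sites or with extreme replicate ranks, were named after their values were seen. Sequence windows that meet an annotated exon were passed over, as were peaks on chr2R. Alternatives were other promoter distances (250 and 1000 bp), optimal summits more than 1000 bp away, gene 5′ ends only, matching distances (100 and 500 bp), motif windows (50 and 150 bp), the peaks above the median signal, and leaving out each replicate.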

Additional observations from a re-analysis of the deposited data

How the results depend on the processing

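The rule's distance set the number of weak promoter peaks, 2737 with starts within 250 bp and 6978 within 1000 bp. Asking for a match in 1 replicate alone gave 2878 to 3161 reproducible peaks. The odds ratio for matching at starts stayed above 1 in every alternative run, from 1.39 without replicate 2 to 2.29 with starts within 250 bp. None of these runs compared peaks of equal pooled signal, and the same reads chose the members, so the ratios are a description. In the strongest signal group the shares at starts and elsewhere were 77.7% and 75.2%. Motifs were not compared with optimal summits more than 1000 bp away, with gene 5′ ends only, or in the stronger part of all peaks below the cutoff. The odds ratios of GAGAG and ACGTG stayed below 1 and past the threshold in every alternative run that compared motifs. TATAAA missed it with starts within 250 bp (odds ratio 1.28, adjusted p = 0.122, Fisher's exact test) and with 50 bp windows (1.3, adjusted p = 0.065, Fisher's exact test), and the cause was not tested. Using only reproducible peaks above their median signal called 5 motifs, adding CGATA (1.3) and GGTCACACT (3.49). Windows of 50 bp added CATCNCTA (0.316) and CAGGTAG (0.225), and windows of 150 bp added CAGCTG (0.756). Keeping 1 peak per 500 bp, an alternative chosen after seeing the data, left 1795 weak and 856 optimal peaks and called 3 motifs. Among all 16 motifs, the odds ratios of 6 crossed 1 in some alternative, none passing the threshold there. CCACGTCA reached 1.36, TGTTTAC 1.12 and AGATAA 0.904 with 50 bp windows, and TGTTTAC 1.04 with 150 bp windows. TGAGTCA reached 1.04 and 1 with starts within 250 and 1000 bp, and 1.06 above the median signal. With a replicate left out, CGATA ranged from 0.999 to 1.02, the DRE from 0.912 to 0.96 and AGATAA from 0.984 to 1.03. No paired analysis was possible because there is 1 group.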
